A study of Homo sapiens with 6 samples.

Results

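The genes described here encode the actins, the tropomyosins and the contractile proteins that bind actin filaments in U87 cells, an established human glioma line. The 10 members were chosen by symbol, and all 10 were found among the 57905 genes in the count tables. The members are ACTB, ACTG1, ACTA2, TPM1, TPM2, TPM4, TAGLN, CNN1, CALD1 and MYL9, and all 10 were among the 14578 genes abundant enough to be tested. RNA sequencing of total RNA was carried out on 6 libraries. Of these, 3 came from cells labelled siRBM47, which received 100 pmol of siRNA directed at the gene for the RNA-binding protein RBM47. The other 3 came from cells labelled control, with the genotype label WT and the treatment label no, which does not say whether they were transfected. All cells were U87 grown in serum. As the control labels state no transfection, an effect of transfection and one of the siRNA cannot be told apart. Whether replicates were grown separately is not in the labels, and the p-values therefore reflect library-to-library spread that may be technical.

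Actin monomers assemble into filaments, and tropomyosins lie along these filaments and control which proteins can reach them. In non-muscle cells such as glioma cells, the cytoplasmic beta and gamma actins form most filaments, whereas alpha smooth muscle actin, calponin and transgelin are best known from smooth muscle cells and myofibroblasts. Force comes from myosin II, whose activity is set by its regulatory light chains. Many of these genes are targets of SRF, a transcription factor that binds CArG boxes and whose cofactors of the MRTF family are held back by free actin monomers.

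Of the contractile genes, TAGLN rose in the libraries labelled siRBM47, and the other 9 did not pass the test across all genes. All 10 members had a positive log2 fold change of siRBM47 over control, against 48.8% of all tested genes, and their median was 0.79, against -0.01 for all tested genes. By the edgeR quasi-likelihood test at an adjusted p under 0.05, 1 of 10 members was higher and 0 were lower, where 0.0823% of tested genes were called higher and 0.137% lower. At an unadjusted p under 0.05, 6 members were higher, against 7.15% of tested genes. DESeq2 called 3 members higher (TAGLN, TPM1 and ACTB), where it called 4.42% of tested genes, 1.79% higher and 2.63% lower. Limma-voom called 1 member higher, where it called 0.233% of tested genes, 0.0892% higher and 0.144% lower. Every siRBM47 library lay above every control library for 6 members, against 11.6% of tested genes. The members share these libraries and were chosen with earlier results known, so none of these counts is a test.

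The count of members called rested on single libraries. Without control replicate 3, edgeR called 9 of 10 members higher, with TPM2 the exception, where 10.1% of tested genes were called higher. The median of the members was then 1.33, against 0.02 for all tested genes. With any other single library left out, 0 members were called, and 4 or 5 members had an unadjusted p under 0.05, as had 1409 to 1816 of the 14578 tested genes. Limma-voom with quality weights, which give a divergent library less influence, called 9 members higher, where it called 19.9% of tested genes higher and 40.3% in either direction. With the replicate number as a block, edgeR called 2 members higher, against 0.103% of tested genes, and with no filter 5, where 1.2% were called higher and 1.76% lower. Control replicate 3 was closer to the siRBM47 mean than to the mean of the other controls in 60.6% of tested genes. It lay above both other control libraries for 8 of 10 members, against 44.9% of tested genes. Its difference from the mean of control replicates 1 and 2 had a median of 0.77 (log2) over the members, against 0.01 over all tested genes.

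**Figure D1:**
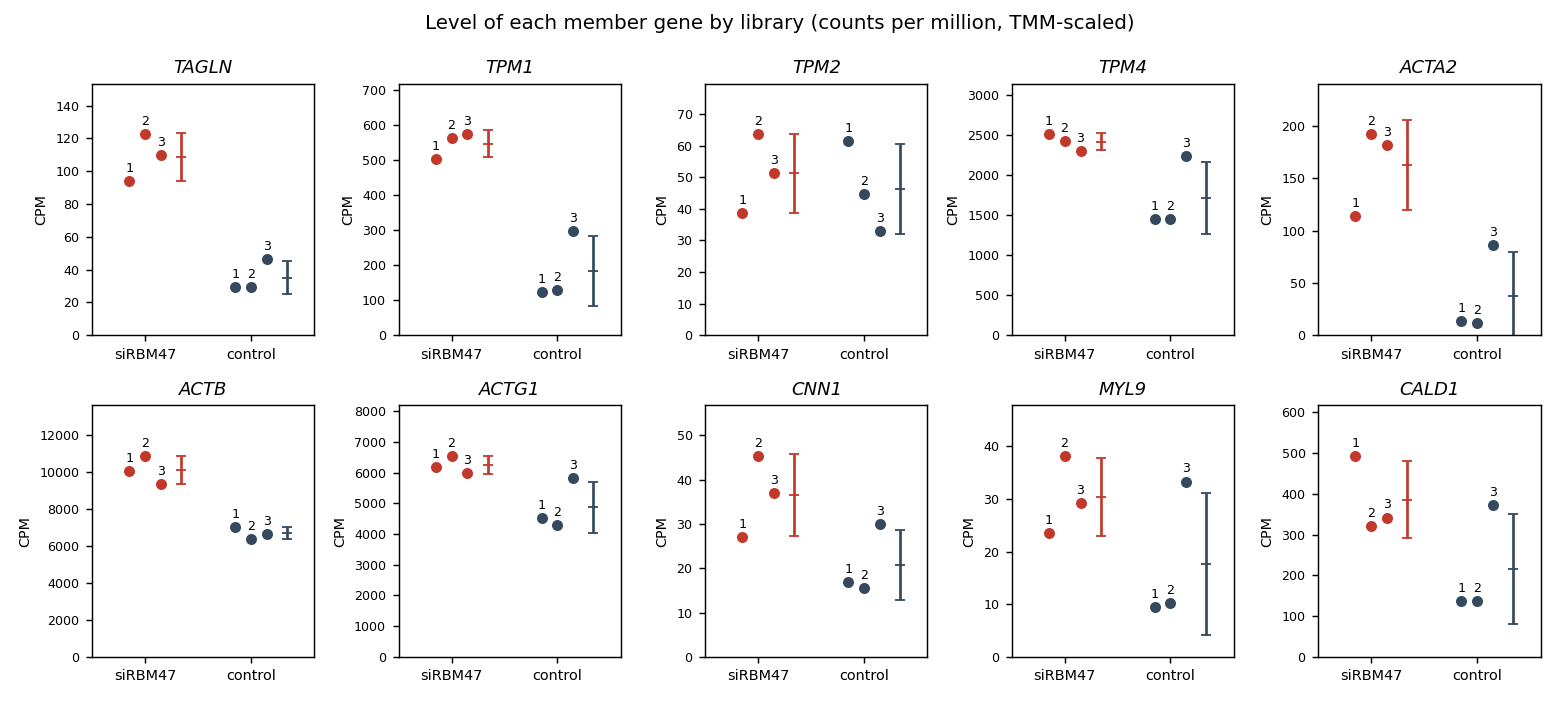
Levels in CPM (counts scaled by library size, vertical axes from 0) of the 10 genes, with siRBM47 libraries left of control libraries in each panel. Points are libraries with their replicate number, and bars are the mean and SD over 3 libraries; the lower end of the ACTA2 control bar lies below 0 and is not drawn. Control replicate 3 is the highest control library for 8 genes, and TPM2 is the gene whose groups lie on top of each other.

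Library totals ranged from 15580000 to 18130000 counts, rounded. Across genes, log2 CPM correlated (Pearson) at 0.988 between control replicates 1 and 2, and 0.941 and 0.95 between these and control replicate 3. It was 0.978 to 0.987 among siRBM47 libraries. RBM47 itself was measured at 3.54, 2.74 and 2.23 CPM in siRBM47 replicates 1, 2 and 3, against 1.62, 1.73 and 5.75 CPM in control replicates 1, 2 and 3. The targeted gene did not pass the test (log2 fold change -0.11, SE 0.50, adjusted p = 0.942, edgeR), and its log2 fold change was 0.76 once control replicate 3 was left out (SE 0.36, adjusted p = 0.152, edgeR), so directions are those between libraries as labelled. Of 8 glioma and glial markers, the intermediate filament gene VIM was at 560 to 987 FPKM (fragments scaled by gene length and library size) and NES at 2.36 to 2.73 FPKM. OLIG2 was at 0.971 to 2.47 FPKM, with every siRBM47 library below every control library (log2 fold change -0.83, SE 0.27, adjusted p = 0.19, edgeR). The same order of groups was seen in 11% of tested genes, and the groups overlapped for VIM, NES, SOX2 and GFAP. SOX2 reached 0.628 FPKM, GFAP 0.241 FPKM, S100B 0.267 FPKM and FABP7 0.0409 FPKM, and AQP4 had no counts in any library.

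The promoters of the actin and tropomyosin genes are shown for their CArG boxes, the sites that SRF binds. RefSeq windows of GRCh38.p14 (250 bases before to 50 after a transcription start) matched 7 of the 10 members with 14 windows. Those of TAGLN, ACTB and MYL9 were not matched. A CArG box (CC, then 6 bases of A or T, then GG, which reads the same way on both strands) was found for ACTG1 and TPM4, in 2 of the 14 windows, against 1.29% of 35116 windows of the same length. A CArG-like box, with 1 C or G among the inner 6 bases, was found for ACTA2 and CALD1, in 2 of the 14 windows, against 6.94%. These classes exclude each other at a given site. The CArG-like class was added after the windows had been seen, so its count is no test. The 2 windows of TPM2 overlap, so the windows are not all separate. The CALD1 window with the CArG-like box (134711249 to 134711548) lies upstream of the gene span given below. Capitals mark the CArG or CArG-like boxes in the windows below, written 5′ to 3′ on the strand of the gene.
ACTG1, chr17:81512750-81513049, minus strand: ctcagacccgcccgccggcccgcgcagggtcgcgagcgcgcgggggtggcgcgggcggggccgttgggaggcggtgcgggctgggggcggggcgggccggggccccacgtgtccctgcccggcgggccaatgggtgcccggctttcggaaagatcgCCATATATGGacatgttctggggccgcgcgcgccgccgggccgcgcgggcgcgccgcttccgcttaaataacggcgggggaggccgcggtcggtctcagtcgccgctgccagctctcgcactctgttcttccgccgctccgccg
TPM4, chr19:16067288-16067587, plus strand: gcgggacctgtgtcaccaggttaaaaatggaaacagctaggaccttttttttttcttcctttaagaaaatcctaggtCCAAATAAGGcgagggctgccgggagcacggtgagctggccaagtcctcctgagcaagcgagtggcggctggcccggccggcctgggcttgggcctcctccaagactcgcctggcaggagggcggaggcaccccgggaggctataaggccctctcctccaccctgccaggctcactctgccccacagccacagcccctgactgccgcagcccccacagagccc
ACTA2, chr10:88952724-88953023, minus strand: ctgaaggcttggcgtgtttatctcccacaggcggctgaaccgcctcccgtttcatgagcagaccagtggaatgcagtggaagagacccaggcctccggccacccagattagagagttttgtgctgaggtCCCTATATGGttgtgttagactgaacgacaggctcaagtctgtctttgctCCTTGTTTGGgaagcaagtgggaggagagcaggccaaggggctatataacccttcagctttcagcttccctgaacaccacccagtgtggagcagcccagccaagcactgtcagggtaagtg
The box of ACTG1 begins 94 bases before its start. That of TPM4 begins 173 bases before the most upstream start of its 3 windows. The other TPM4 windows hold no CArG or CArG-like box, and counts per gene do not tell the starts apart. The ACTA2 window holds CArG-like boxes that begin 121 and 71 bases before the start, and the sequence GGAATG, a TEAD-type M-CAT motif, 183 bases before it. CATTCC or GGAATG was present in 14.03% of all windows and TATAAA, on either strand, in 11.53%. Of the members in the table, CALD1 also held an M-CAT motif, in 2 of its 4 windows, and TATAAA in 1. A match to these letters is a description of the window and not of binding.

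None of the actins passed the edgeR test on all 6 libraries, and the log2 fold changes were 0.59 for ACTB, 0.36 for ACTG1 and 2.12 for ACTA2. ACTB (ENSG00000075624, GRCh38 chromosome 7, 5527147 to 5563784, minus strand) encodes beta actin. It was measured at 10020, 10864 and 9350.5 CPM in siRBM47 replicates 1, 2 and 3, against 7011, 6383 and 6631 CPM in control replicates 1, 2 and 3. The groups did not overlap, and control replicate 3 lay between the other 2 controls. Means were 10078 ± 758 and 6675 ± 316 CPM in siRBM47 and control (SD, n = 3 each), a log2 fold change of 0.59 (SE 0.17, adjusted p = 0.153, edgeR). DESeq2 gave ACTB an adjusted p of 0.0289, and without control replicate 3 the fold change stayed at 0.59 (adjusted p = 0.00807, edgeR). ACTB was the member whose difference was least moved by that library in relation to its size.

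ACTG1 (ENSG00000184009, chromosome 17, 81509971 to 81523847, minus strand) encodes gamma cytoplasmic actin. Its level was 6192, 6548 and 5979 CPM in siRBM47 libraries, against 4515, 4277 and 5809 CPM in control libraries, in order of replicate. The groups did not overlap, but control replicate 3 lay just under the lowest siRBM47 library. The log2 fold change was 0.36 (SE 0.19, adjusted p = 0.393, edgeR) and 0.51 without control replicate 3 (adjusted p = 0.0152, edgeR).

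ACTA2 (ENSG00000107796, chromosome 10, 88935074 to 88991339, minus strand) encodes alpha smooth muscle actin, a marker of smooth muscle and of myofibroblasts. It was at 114, 193 and 182 CPM in siRBM47 replicates 1, 2 and 3, against 13.3, 12.03 and 86.5 CPM in control replicates 1, 2 and 3. The siRBM47 libraries were all higher. On the log2 scale, control replicate 3 lay 2.76 above the mean of control replicates 1 and 2, and the siRBM47 mean lay 3.63 above it. The log2 fold change of ACTA2 came to 2.12 (SE 0.68, with a 95% interval of 0.61 to 3.63 and adjusted p = 0.18, edgeR). It was 3.68 without control replicate 3 (SE 0.24, adjusted p = 1.25e-06, edgeR). The window of ACTA2 with the CArG-like boxes above is the inner of its 2 RefSeq starts, and counts per gene do not tell the starts apart. FAS and ACTA2-AS1 overlap the exons of ACTA2 on the opposite strand by 12.8% and 17.3%. The kit used for the libraries keeps no strand information. FAS did not pass the test (log2 fold change 0.30, SE 0.35, adjusted p = 0.719, edgeR), and ACTA2-AS1 had 1, 8 and 12 counts in siRBM47 libraries, against 0, 0 and 4 in control libraries.

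In the tropomyosin family no member passed the edgeR test on all 6 libraries, and the log2 fold changes were 1.58 for TPM1, 0.50 for TPM4 and 0.15 for TPM2. TPM1 (ENSG00000140416, chromosome 15, 63042632 to 63071915, plus strand) gives rise by splicing to muscle and stress fibre tropomyosins. It was at 503, 564 and 574 CPM in siRBM47 libraries, against 122, 129.5 and 298 CPM in control libraries, in order of replicate. Control replicate 3 again stood between the 2 other controls and the siRBM47 libraries. Its log2 fold change was 1.58 (SE 0.33, adjusted p = 0.0819, edgeR). The adjusted p for TPM1 was 0.000404 by DESeq2, and 2.08e-06 by edgeR without control replicate 3, at a log2 fold change of 2.12. With the replicate number of the titles as a block it was 0.0431 (edgeR). Antisense transcripts overlap TPM1 exons by 16.1% (TPM1-AS) and 5.37%, and TPM1-AS had 1 to 5 counts in siRBM47 libraries, against 4 to 15 in control libraries, low beside the 1799 to 10284 counts of TPM1.

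TPM4 (ENSG00000167460, chromosome 19, 16067021 to 16103005, plus strand) encodes a non-muscle tropomyosin and was the most abundant of the family. It was at 2515, 2430.0 and 2302 CPM in siRBM47 libraries, against 1452, 1454 and 2235 CPM in control libraries, in order of replicate. The groups did not overlap, with control replicate 3 just under the lowest siRBM47 library. The log2 fold change was 0.50 (SE 0.22, adjusted p = 0.3, edgeR) and 0.73 without control replicate 3 (adjusted p = 0.00212, edgeR). TPM2 (ENSG00000198467, chromosome 9, 35681992 to 35690121, minus strand) encodes beta tropomyosin, known from muscle. It was at 38.7, 63.7 and 51.3 CPM in siRBM47 libraries, against 61.3, 44.6 and 32.8 CPM in control libraries, in order of replicate, so the groups overlapped over most of their range. It had a log2 fold change of 0.15 (SE 0.27, with a 95% interval of -0.46 to 0.75 and adjusted p = 0.828, edgeR). The sign was negative without control replicate 3 (-0.05) and without siRBM47 replicate 2 (-0.03).

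Of the proteins that bind actin and tropomyosin, TAGLN rose and CNN1 and CALD1 did not pass the test. TAGLN (ENSG00000149591, chromosome 11, 117199321 to 117204782, plus strand) encodes transgelin, a calponin-related actin-binding protein of smooth muscle and fibroblasts. It was at 93.8, 122.8 and 109.7 CPM in siRBM47 replicates 1, 2 and 3, against 29.1, 29.5 and 46.6 CPM in control replicates 1, 2 and 3. The lowest siRBM47 library was above the highest control by a wide margin. Means were 109 ± 14.5 and 35.1 ± 9.98 CPM in siRBM47 and control (SD, n = 3 each), a log2 fold change of 1.63 (SE 0.24, with a 95% interval of 1.10 to 2.16 and adjusted p = 0.037, edgeR). The call was lost when any library but control replicate 3 was left out, at an adjusted p of 0.0693 to 0.222 (edgeR), while the log2 fold change stayed between 1.52 and 1.73. Without control replicate 3 it was 1.89 (adjusted p = 1.42e-05, edgeR). PCSK7 overlaps 11.4% of the TAGLN exon length on the opposite strand and had 467 to 625 counts in siRBM47 libraries, against 434 to 492 in control libraries (log2 fold change 0.12, SE 0.19, adjusted p = 0.798, edgeR).

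CNN1 (ENSG00000130176, chromosome 19, 11538717 to 11550323, plus strand) encodes calponin, an inhibitor of actomyosin ATPase activity in smooth muscle. It was at 27.0, 45.4 and 37.1 CPM in siRBM47 libraries, against 17.0, 15.5 and 29.9 CPM in control libraries, in order of replicate. CALD1 (ENSG00000122786, chromosome 7, 134744252 to 134970728, plus strand) encodes caldesmon, which binds actin, tropomyosin and myosin. It was at 494, 322 and 342 CPM in siRBM47 libraries, against 137.5, 138 and 371 CPM in control libraries, in order of replicate. For both genes control replicate 3 lay within the siRBM47 range and the other 2 controls below it. The log2 fold changes were 0.81 for CNN1 (SE 0.30, adjusted p = 0.233, edgeR) and 0.84 for CALD1 (SE 0.38, adjusted p = 0.32, edgeR). Without control replicate 3 they were 1.17 and 1.49 (adjusted p = 0.003 and 0.000187, edgeR).

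MYL9 (ENSG00000101335, chromosome 20, 36541484 to 36551447, plus strand) encodes a regulatory light chain of myosin II, whose phosphorylation starts contraction in smooth muscle and non-muscle cells. It was at 23.6, 38.2 and 29.3 CPM in siRBM47 libraries, against 9.55, 10.2 and 33.3 CPM in control libraries, in order of replicate. Control replicate 3 was higher than 2 of the 3 siRBM47 libraries. The log2 fold change was 0.77 (SE 0.45, adjusted p = 0.434, edgeR), and 1.62 without control replicate 3 (SE 0.23, adjusted p = 0.000449, edgeR). Fits without control replicate 3 rest on the small spread between control replicates 1 and 2, which had the lowest chi-square of counts per degree of freedom (10.74) among pairs within a group, the others spanning 15.11 to 144.8.

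**Figure D2:**
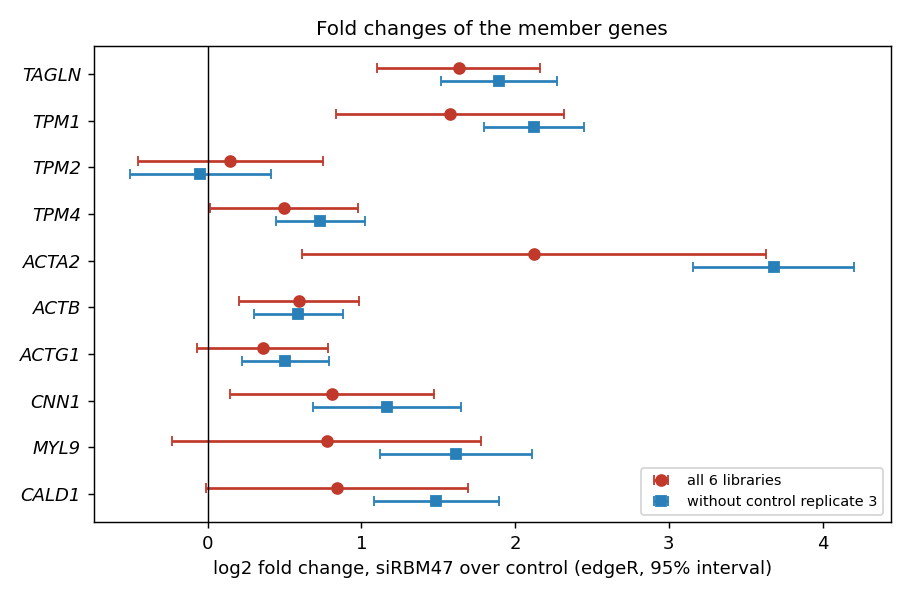
Log2 fold change of siRBM47 over control for each gene by edgeR, with its 95% interval, from all 6 libraries (circles) and without control replicate 3 (squares). The value of ACTA2 moves most (3.68 without that library, 2.12 with all libraries), ACTB stays at 0.59, and TPM2 is near 0 in both.

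Summed over each list, several kinds of marker had higher levels in siRBM47 libraries and in control replicate 3 than in the other control libraries. These were markers of smooth muscle cells and pericytes, of fibroblasts, of immune cells and, at low levels, of endothelial cells. The sums were carried by PDGFRB, by COL1A1 and COL1A2, by CSF1R and by VWF. Single markers such as RGS5, MYH11 and PDGFRA did not follow this order. The summed level of 7 smooth muscle and pericyte markers (MYH11, ACTG2, DES, PDGFRB, RGS5, MYOCD and LMOD1) was 52.3 to 70.5 CPM in siRBM47 libraries, against 27.5, 24.5 and 68.5 CPM in control replicates 1, 2 and 3. None of them was called by edgeR, most of the sum was PDGFRB, and MYOCD, the cofactor that defines smooth muscle, had no counts in any library. The 4 fibroblast markers (COL1A1, COL1A2, DCN and PDGFRA) summed to 3806 to 5470.0 CPM in siRBM47 libraries, against 1587, 1618 and 4924 CPM in control replicates 1, 2 and 3. Of the immune markers, PTPRC and CD14 reached at most 0.00789 and 0.351 FPKM, and CSF1R made up the sum, which was 23.5 to 31.6 CPM in siRBM47 libraries, against 11.9 to 25.3 CPM in control libraries. The epithelial sum was 21.7 to 27.6 CPM in siRBM47 libraries, against 18.6 to 38.5 CPM in control libraries. The endothelial sum covers 2 of 3 markers, since PECAM1 is not analysed here. It was 1.20 to 2.60 CPM in siRBM47 libraries, against 0.203, 0.345 and 3.03 CPM in control replicates 1, 2 and 3. The part of these markers in the differences of the members was not tested. In bulk RNA, fewer cells of a type and less RNA per cell cannot be told apart.

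Levels per gene length placed the cytoplasmic actins far above the other members. By the deposited FPKM, which divide by gene length, ACTB averaged 3076 ± 209 in siRBM47 and 2027 ± 98.2 in control (SD, n = 3 each), and ACTG1 2084 ± 80.1 and 1616 ± 265. TPM4 followed at 324 ± 14.5 and 228 ± 58.8 FPKM in siRBM47 and control. In siRBM47 libraries TPM1 (64.2 ± 4.38 FPKM), ACTA2 (53.4 ± 13.8 FPKM) and CALD1 (38.6 ± 9.61 FPKM) came next, and each overlapped its neighbour in this order. TAGLN (27.6 ± 3.48 FPKM) and MYL9 (25.1 ± 5.91 FPKM) overlapped across libraries, as did TPM2 (12.6 ± 2.97 FPKM) and CNN1 (12.3 ± 3.04 FPKM). In control libraries CALD1 (21.4 ± 13.3 FPKM), TPM1 (21.4 ± 11.5 FPKM), MYL9 (14.6 ± 11.05 FPKM), ACTA2 (12.1 ± 13.8 FPKM), TPM2 (11.3 ± 3.53 FPKM), TAGLN (8.84 ± 2.47 FPKM) and CNN1 (6.99 ± 2.62 FPKM) followed in this order, and each overlapped its neighbours. Compared within single libraries, TPM1 was above ACTA2 and TPM2 slightly above CNN1 in every siRBM47 library. In every control library TPM1 was above MYL9 and TAGLN above CNN1. The other overlapping neighbours changed order between libraries.

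The actin genes together took 1.68%, 1.72% and 1.58% of all counts in siRBM47 replicates 1, 2 and 3, against 1.09%, 1.05% and 1.30% in control replicates 1, 2 and 3. Every siRBM47 library was above every control library (exact two-sided permutation p = 0.1, the smallest that 3 against 3 libraries allow). The 4 tropomyosin genes took 0.396%, 0.379% and 0.387% in siRBM47 libraries, against 0.215%, 0.229% and 0.329% in control libraries (exact two-sided permutation p = 0.1). Within the summed FPKM of the 6 actin genes, ACTG1 made up 39.99% ± 0.687 in siRBM47 and 44.0% ± 3.97 in control (SD, n = 3 each, exact two-sided permutation p = 0.1). The difference of -4.05 percentage points was -1.77 without control replicate 3, whose ACTG1 share was 48.6%. ACTA2 made up 0.722%, 1.14% and 1.22% in siRBM47 libraries, against 0.120%, 0.117% and 0.711% in control libraries (exact two-sided permutation p = 0.1). Alpha smooth muscle actin was thus a small part of the actin transcripts in all libraries. ACTG2, ACTC1 and ACTA1, the other muscle actins, reached at most 0.0329% of the actin FPKM.

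Within the tropomyosins, TPM1 made up 11.8%, 13.1% and 13.7% of the summed FPKM of TPM1 to TPM4 in siRBM47 libraries, against 4.77%, 5.01% and 8.43% in control libraries (exact two-sided permutation p = 0.1). The share of TPM2 was 2.52% ± 0.602 in siRBM47 and 3.53% ± 1.54 in control (exact two-sided permutation p = 0.4). That difference of -1.01 percentage points was -0.257 without control replicate 1 and -1.80 without control replicate 3. TPM3, a tropomyosin gene that is no member, made up 19.7% ± 1.23 and 23.3% ± 5.10 (p = 0.4), and TPM4 64.9% ± 2.40 and 67.1% ± 4.36 (p = 0.6), in siRBM47 and control (SD, n = 3 each, exact two-sided permutation tests). In control replicate 3 the TPM4 share was the highest of the 6 libraries, at 72.2%, and the TPM3 share the lowest, at 17.5%. Counts per gene do not tell the muscle and non-muscle splice forms of a tropomyosin gene apart.

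**Figure D3:**
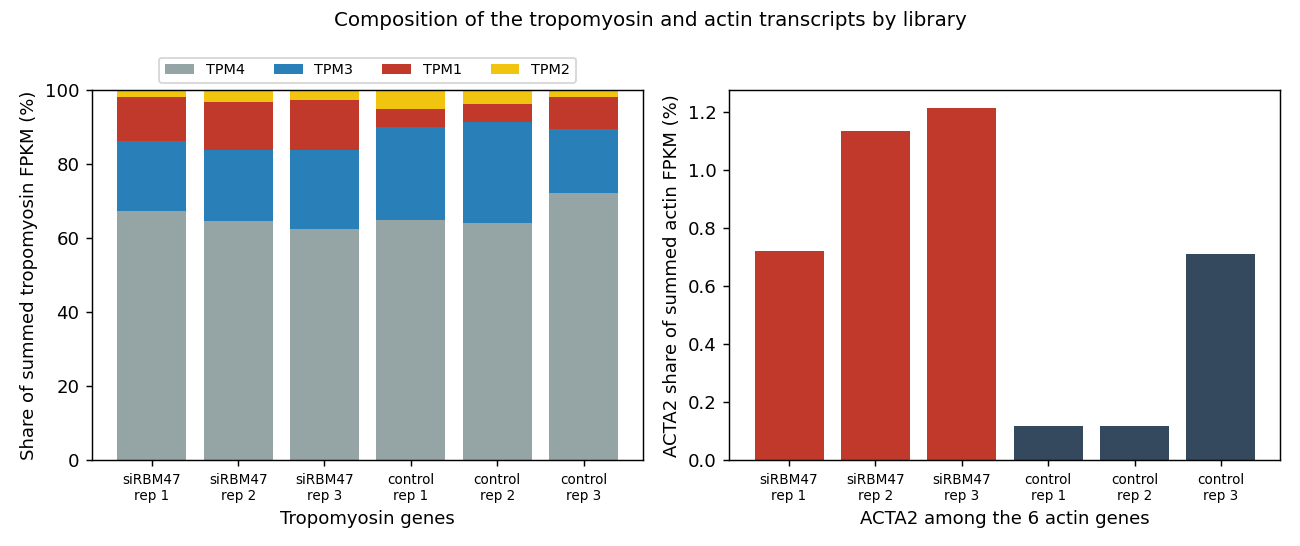
Left, stacked shares of TPM1 to TPM4 in their summed FPKM for each library, and right, the share of ACTA2 in the summed FPKM of the 6 actin genes, both in percent, with siRBM47 libraries left of control libraries. TPM1 takes 11.8% to 13.7% in siRBM47 libraries, against 4.77% to 8.43% in control libraries, and the ACTA2 bar of control replicate 3 (0.711%) stands just below that of siRBM47 replicate 1 (0.722%).

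Reads of actin genes can also be counted on their processed pseudogenes, which are near-identical copies. ACTBP2 (ENSG00000213763, chromosome 5), a processed pseudogene of ACTB, had 57, 38 and 83 counts in siRBM47 replicates 1, 2 and 3, against 5, 5 and 9 counts in control replicates 1, 2 and 3. It was itself called higher (log2 fold change 3.14, SE 0.46, adjusted p = 0.0381, edgeR), a larger difference than that of ACTB at 0.59. By DESeq2 its adjusted p was 6.68e-06, by limma-voom 0.0562. All 11 ACTB pseudogenes together held at most 0.0508% as many counts as ACTB in any library, and the 21 of ACTG1 at most 0.0225% as many as ACTG1. How the authors assigned reads that match several copies is not given in the sources used here, so counts of ACTBP2 are uncertain. The shares above cover only reads that were counted on pseudogenes. Reads left uncounted because they match several copies would not show in them, so the effect on ACTB and ACTG1 is not known.

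Other genes of the actin system were read from 6 lists. None of their genes passed the edgeR test on all 6 libraries (0 called in each list by edgeR and limma-voom). The values below are therefore differences that missed the threshold, unless another fit is named. Of the other actins, tropomyosins, calponins and transgelins, 7 of 8 were tested, with 5 positive and 2 negative log2 fold changes and a median of 0.37, and 2 had an unadjusted p under 0.05, against 16.1% of tested genes. Leaving out control replicate 3 gave 2 called higher and 1 lower by edgeR, against 10.1% and 11.3% of tested genes, with a median of 0.34. ACTG2, enteric smooth muscle actin, was at 6.06 ± 0.813 CPM in siRBM47 and 2.49 ± 1.26 CPM in control (SD, n = 3 each; log2 fold change 1.28, adjusted p = 0.183, edgeR). TAGLN3, a neuronal relative of transgelin, was at 6.78 ± 2.47 and 19.2 ± 13.0 CPM (-1.49, adjusted p = 0.254, edgeR), and TPM3 at 828 ± 42.8 and 646 ± 42.4 CPM (0.36, adjusted p = 0.332, edgeR).

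Of 17 genes of myosin II and its regulators, 16 were tested, with 11 positive and 5 negative log2 fold changes and a median of 0.27. At an unadjusted p under 0.05, 4 were higher and 2 lower, where 16.1% of tested genes passed and 7.15% were higher. DESeq2 called 1 higher and 1 lower, against 1.79% and 2.63% of tested genes. Leaving out control replicate 3 gave 5 called higher and 2 lower by edgeR, against 10.1% and 11.3% of tested genes, with a median of 0.32. MYL12A, another regulatory light chain, was at 601 ± 16.2 CPM in siRBM47 and 414 ± 22.6 CPM in control (SD, n = 3 each; log2 fold change 0.54, adjusted p = 0.166, edgeR). The small GTPase RHOB, which acts on actin fibres, had a log2 fold change of 0.54 (adjusted p = 0.246, edgeR), and PPP1R12B, a subunit of myosin phosphatase, had -0.98 (adjusted p = 0.152, edgeR). MYH9, the main non-muscle myosin heavy chain in these cells, was at 1644 and 1565 CPM on average in siRBM47 and control (log2 fold change 0.07, adjusted p = 0.883, edgeR).

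Of 19 genes for SRF, its cofactors and muscle-type targets, 17 were tested, with 12 positive and 5 negative log2 fold changes and a median of 0.44. At an unadjusted p under 0.05, 6 were higher and 1 lower, where 16.1% of tested genes passed and 7.15% were higher. The lower gene was SMTN, with a log2 fold change of -0.86 (SE 0.33, adjusted p = 0.248, edgeR). Without control replicate 3 that of SMTN was -1.19 (adjusted p = 0.000213, edgeR). DESeq2 called 3 higher, against 1.79% of tested genes. TGFB1I1, which encodes the focal adhesion protein HIC-5, was at 122 ± 17.8 CPM in siRBM47 and 59.1 ± 7.27 CPM in control (SD, n = 3 each; log2 fold change 1.04, adjusted p = 0.0716, edgeR). The LIM domain genes CSRP1 and PDLIM7 had log2 fold changes of 0.83 (adjusted p = 0.0966, edgeR) and 0.89 (adjusted p = 0.114, edgeR). The transcripts of SRF itself and of its cofactor MRTFA had log2 fold changes of -0.05 (SE 0.22) and -0.11 (SE 0.25), and MYOCD had no counts. Without control replicate 3, 10 genes of this list were called higher and 1 lower, against 10.1% and 11.3% of all tested genes, with a median of 0.71.

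The 14 crosslinkers and stress fibre proteins had 5 positive and 9 negative log2 fold changes and a median of -0.15, where 48.8% of tested genes were positive. Without control replicate 3, 4 of them were called higher and 2 lower, against 10.1% and 11.3% of tested genes, with a median of -0.06. FLNC, a filamin, was at 452 ± 96.1 CPM in siRBM47 and 691 ± 72.1 CPM in control (SD, n = 3 each; log2 fold change -0.61, adjusted p = 0.199, edgeR). TLN1, which links integrins to actin, had -0.35 (adjusted p = 0.373, edgeR), and the stress fibre protein PALLD had 0.87 (adjusted p = 0.313, edgeR). With control replicate 3 left out, FLNC, TLN1 and PALLD had log2 fold changes of -0.68, -0.36 and 1.57 (adjusted p = 0.0132, 0.102 and 4.85e-05, edgeR). The 25 genes of actin assembly and turnover had 19 positive and 6 negative log2 fold changes and a median of 0.30, with 7 higher, against 7.15% of tested genes, and 0 lower at an unadjusted p under 0.05. Leaving out control replicate 3 gave 11 called higher and 1 lower by edgeR, against 10.1% and 11.3% of tested genes, with a median of 0.47. The actin monomer-binding gene TMSB4X was at 4693 ± 404 and 3141 ± 678 CPM in siRBM47 and control (0.58, adjusted p = 0.221, edgeR), and CAPZB, of the capping protein, and ACTR3, of the Arp2/3 complex, had 0.58 and 0.59 (adjusted p = 0.195 and 0.192, edgeR). Of 16 striated muscle sarcomere genes 4 were tested, and TNNT1 was the one with substantial levels, at 276 ± 49.9 and 221 ± 56.1 CPM in siRBM47 and control (0.32, adjusted p = 0.543, edgeR). TNNI1 and NEB were near 1 CPM or below, with log2 fold changes of 1.35 and -1.41 (adjusted p = 0.324 and 0.243, edgeR). In this last list, leaving out control replicate 3 gave 1 called higher and 0 lower by edgeR, with a median of -0.55.

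**Figure D4:**
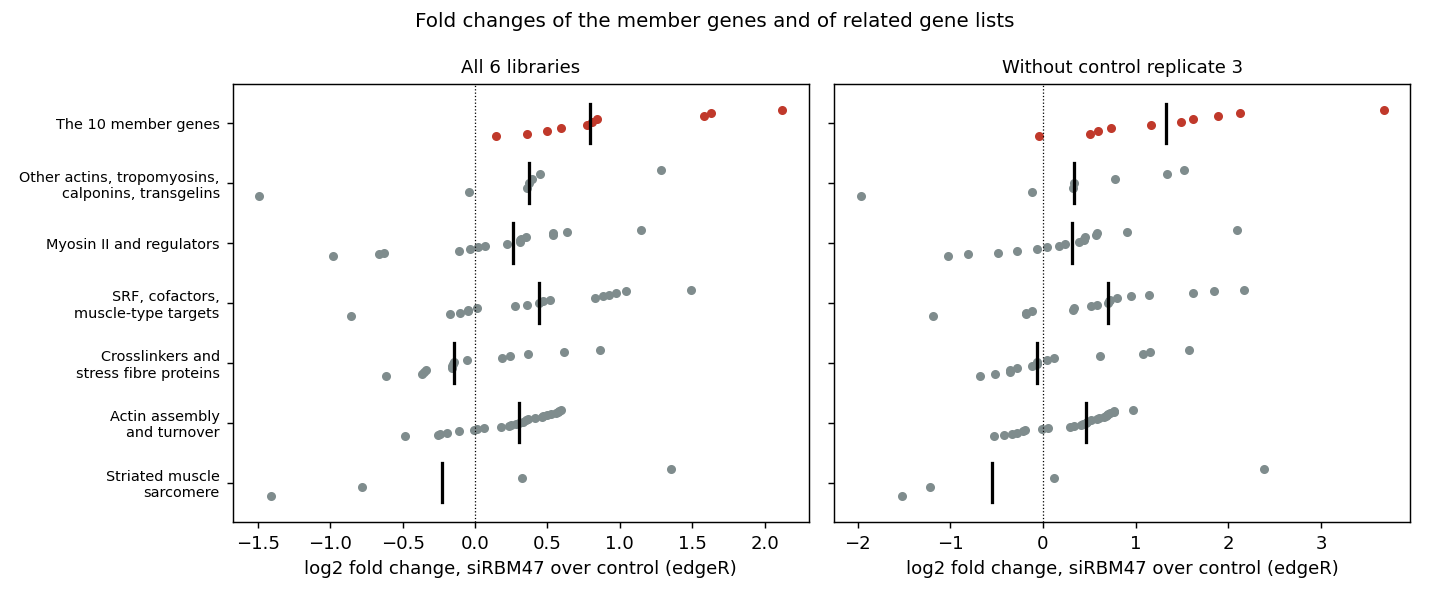
Log2 fold changes of siRBM47 over control by edgeR for the 10 member genes (red) and the tested genes of 6 related lists (grey), from all 6 libraries (left) and without control replicate 3 (right). Vertical bars are medians, which are 0.79 for the members, 0.44 for the SRF list and -0.15 for the crosslinkers with all libraries, and 1.33, 0.71 and -0.06 without that library.

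The members followed a common pattern over the 6 libraries with 1 clear exception. The mean of their centred log2 CPM was 0.38, 0.68 and 0.52 in siRBM47 replicates 1, 2 and 3, against -0.79, -0.87 and 0.08 in control replicates 1, 2 and 3. The Pearson correlation of each gene with the mean of the other 9 was 0.991 for ACTA2, 0.987 for TPM1 and 0.982 for ACTG1, and lay between 0.831 (ACTB) and 0.963 (TPM4) for the other members but TPM2, where it was -0.072. Of 9697 other genes with a symbol and a mean log2 CPM of at least 3, TENM3, SRD5A1, FOS, FGF1 and TNFRSF21 correlated best with the members' mean, at 0.994 to 0.997. These values describe the 6 libraries only and carry no p. How many of all tested genes correlate as well was not counted, so the pattern is not shown to be particular to the members. Of the 5 genes that correlated best, FOS was at 101, 147 and 117 CPM in siRBM47 libraries, against 26.7, 19.9 and 76.9 CPM in control libraries, in order of replicate. None of the 5 passed the edgeR test on all 6 libraries (adjusted p = 0.132 to 0.277). DESeq2 called FOS and FGF1 (adjusted p = 0.0108 and 0.0137), where it called 4.42% of tested genes. Without control replicate 3, all 5 passed (adjusted p = 1.03e-05 to 0.00978, edgeR), as did 21.4% of tested genes. The 5 were picked for following the members' pattern in these same libraries. Their calls by either tool therefore follow from the choice and are no test.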

How the data were processed

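Total RNA of 6 U87 libraries was sequenced, and groups and replicate numbers came from the sample titles. The submitters' processing notes name HISAT2 2.0.5, featureCounts 1.5.0-p3 and hg38. Annotation release and strand setting: not given in the sources used here. Per the file headers, each deposited table gives a count and an FPKM per gene. Counts were used for every fold change, and the authors' FPKM for levels per length and shares.

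Symbols came from a gene identifier table, and positions and exon overlaps from GENCODE release 29. Genes kept by filterByExpr (minimum count of 10) were tested with edgeR 4.0.16 under R 4.3.3, by the quasi-likelihood test with TMM factors and Benjamini-Hochberg adjustment over 14578 genes, at a threshold of 0.05. SEs were derived from the fold change and its F statistic. Shares were compared by exact permutation tests (SciPy 1.17.1). Alternatives were RLE and upper-quartile factors, DESeq2 1.42.0, limma-voom (limma 3.58.1) without and with quality weights, a minimum count of 50, no filter, leaving out each library, and a replicate block. DESeq2 and limma-voom without control replicate 3 were added after seeing the data. The members and lists were chosen with earlier results of these data known. From each list, the genes named were those past the threshold or else the 3 with the smallest p, and any others (MYH9, SRF, MRTFA, MYOCD, SMTN) were chosen after their values were seen. The 5 most similar genes were those with the highest correlation. Levels at 0 are limited by counting error (at most 3 counts). Promoter motifs were searched as exact letters, and the CArG-like class was added after the windows had been seen.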

Additional observations from a re-analysis of the deposited data

How the results depend on the processing

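With RLE or upper-quartile factors, limma-voom or a minimum count of 50 the number of members called stayed at 1. It was 3 by DESeq2, 5 with no filter, 9 by limma-voom with quality weights (5880 genes in all), and 9 by DESeq2 and limma-voom without control replicate 3, where 3363 and 3101 genes were called. DESeq2 called 644 genes and the fit with no filter 804, against 32 by edgeR. Leaving out each library in turn gave 0 to 9 members and 0 to 3117 genes. The cause was not tested. Among the quality weights, siRBM47 replicate 1 had 0.334 and control replicate 3 had 0.134, and the rest lay between 1.43 and 4.29. Libraries with the same number were not shown to be paired, with correlations of their deviations from group means of -0.0364, 0.127 and 0.116. With the replicate block, 2 members (TAGLN and TPM1) and 39 genes were called. Over all members and alternatives, 110 of the log2 fold changes kept their direction and side of the threshold, 23 came past the threshold, 5 (TAGLN with a library left out) lost it, and 2 changed sign. The sign changes were of TPM2, -0.0267 without siRBM47 replicate 2 and -0.0472 without control replicate 3, within a range of -0.0472 to 0.408 over the libraries left out. With counts per exon length in place of FPKM, the differences in the TPM2 and ACTG1 shares were -1.29 and -4.11 percentage points. With a library left out they ran from -1.80 to -0.257 and from -5.43 to -1.77. Depth limits the precision of ACTBP2, which rests on 5 to 83 counts per library.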
